A study of Mus musculus with 3 samples.

Results

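The 10 genes described here are the matrix metalloproteinases Mmp8, Mmp9, Mmp12, Mmp13, Mmp14 and Mmp19, the tissue inhibitors of metalloproteinases Timp1, Timp2 and Timp3, and the membrane sheddase Adam8. They were taken by symbol, without regard to their values, from the 55536 genes of the annotation, 22028 of them protein-coding, and all 10 were found in each library. Total RNA depleted of ribosomal RNA was sequenced from the nuclear fraction (the description names it the nucleoplasmic fraction) of mouse bone marrow-derived macrophages (BMDM), which are primary phagocytes grown from marrow progenitors. All cells were of the C57BL/6J strain and had been given Lipid A, the membrane anchor of bacterial lipopolysaccharide and a ligand of Tlr4, at 100 ng/ml for 15 min. Sex and age were not collected, and no genetic change is named. There was 1 group of 3 libraries, replicates 1 to 3, with separate biosamples but the same donor entry, so the spread between them may be technical. The starting quantity was 1 µg of RNA for replicates 1 and 3 and 500 ng for replicate 2. No untreated or later sample was analysed here, so the values describe levels at this time and not a response to Lipid A.

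Matrix metalloproteinases are zinc endopeptidases that are made with an inhibitory propeptide and cut collagens, elastin, basement membrane and many secreted proteins once that propeptide is removed. Timps bind the active site of the mature enzymes, and in macrophages the enzymes take part in migration through tissue, matrix turnover and the shedding of cytokines and receptors. Mmp14 sits in the plasma membrane, where together with Timp2 it activates the gelatinase Mmp2. Adam8 belongs to the related disintegrin and metalloproteinase family and cleaves membrane proteins of leukocytes.

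Annotated genes held 18516063, 17345644 and 20947006 expected counts (reads shared out among genes by a model) in replicates 1 to 3. A count of 0 allows up to 3 counts, which is 0.143 to 0.173 CPM (counts scaled to the same library total) in these libraries. All 8 macrophage markers were measured, that is, had a mean of at least 10 expected counts, and their median was 217 TPM (a relative level corrected for gene length). Replicate 1 stood apart most often: 4.85% of the 15881 measured genes were at least 2-fold above both other libraries there and 3.22% at least 2-fold below both. The corresponding shares above and below were 0.856% and 2.22% in replicate 2, and 1.55% and 1.39% in replicate 3. Values that rest on replicate 1 are therefore given with and without it.

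In levels per length, Adam8 was the highest of the 10 genes in every library, Mmp12 and Timp2 came next, and Mmp14, Mmp19, Mmp8 and Mmp13 lay close together well below them. By expected counts, Timp1, Timp3 and Mmp9 were near the limit of detection. Of the 10 genes, 8 were measured, beside 54.3% of all protein-coding genes, and Timp1 and Mmp9 were the 2 that were not. The median of the 10 mean levels was 4.33 TPM, against 0.567 TPM over all protein-coding genes. Among the 9 pairs of neighbours in the order of mean TPM, the ranges over 3 libraries overlapped in 6. The 3 gaps without overlap lay between Adam8 and Mmp12, between Timp2 and Mmp14, and between Mmp13 and Timp1. These set 4 tiers apart: Adam8, then Mmp12 with Timp2, then the 4 middle proteases, then the 3 lowest genes.

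**Figure D1:**
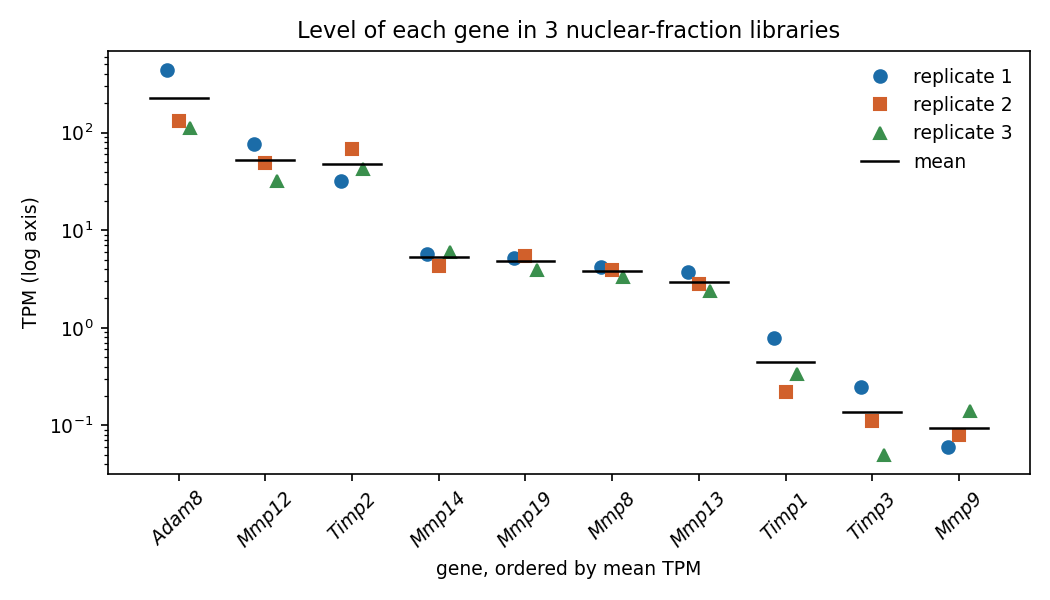
Level of each gene in TPM on a log axis, with 1 point per library (3 libraries of the only group) and a bar at the mean, in order of mean TPM. Adam8 lay above every other gene in each library, and Timp1, Timp3 and Mmp9 stayed below 1 TPM.

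Adam8 (ENSMUSG00000025473.16, GRCm38 chr7:139978932-139992562, minus strand) stood at 439.21 TPM in replicate 1, 131.72 TPM in replicate 2 and 112.95 TPM in replicate 3. Replicate 1 was high and the other libraries were close to each other. The mean was 228 ± 183 TPM (SD, n = 3) and fell to 122 TPM without replicate 1. With this mean Adam8 ranked 84 among protein-coding genes, above 99.6% of them, and its rank was 39 in replicate 1, 210 in replicate 2 and 212 in replicate 3. The level rested on 29396, 7387 and 9622 expected counts.

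Mmp12 (ENSMUSG00000049723.14, chr9:7344381-7369499, plus strand), the macrophage elastase, was the highest of the 6 listed Mmps in each library. It stood at 75.90 TPM in replicate 1, 49.40 TPM in replicate 2 and 31.62 TPM in replicate 3, a mean of 52.3 ± 22.3 TPM (SD, n = 3) and of 40.5 TPM without replicate 1. It held 80.1%, 75% and 66.7% of the summed TPM of the 6 Mmps in replicates 1 to 3. Another protease of its chromosomal cluster, the collagenase Mmp13 (ENSMUSG00000050578.10, chr9:7272514-7283331, plus strand), stood at 3.74, 2.78 and 2.38 TPM. Mmp13 had the lowest mean TPM of the 4 measured genes of that cluster. Mmp27, described below, was above Mmp12 in replicates 2 and 3. Within a library, Mmp12 exceeded Mmp13 by log2 4.03 ± 0.32 (SD, n = 3), or 16.3-fold on the log2(TPM + 0.1) scale, in 3 of 3 libraries. The exact two-sided sign-flip permutation p was 0.25, the smallest that 3 libraries allow, and 0.286 after Benjamini-Hochberg adjustment over the 8 gene pairs compared.

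The annotated starts of Mmp12 transcripts, grouped within 60 bases of a RefSeq start, fall at 2 sites. The windows around both are shown with that of Mmp13. They were chosen because the expected counts of Mmp12 divided unevenly between its sites and because the site with more counts shared motifs with Mmp13. The sequences are those of RefSeq (GRCm38.p6), 250 bases before to 50 after its start site, on the plus strand. RefSeq windows matched 8 of the 10 genes (9 windows). Capitals mark matches, on either strand, to 3 motifs chosen after the levels were known: AP-1 (TGANTCA), the TATA box (TATAAA) and PU.1 (GAGGAA, or TTCCTC on the other strand). No marked match overlapped another.
Mmp12 upstream start, chr9:7344147-7344446: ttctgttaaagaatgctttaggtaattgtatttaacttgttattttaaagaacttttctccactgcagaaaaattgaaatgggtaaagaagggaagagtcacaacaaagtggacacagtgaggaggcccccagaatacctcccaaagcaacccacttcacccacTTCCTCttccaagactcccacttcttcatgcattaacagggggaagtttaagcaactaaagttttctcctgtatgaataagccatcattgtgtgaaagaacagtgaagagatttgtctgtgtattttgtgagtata
Mmp12 downstream start, chr9:7347124-7347423: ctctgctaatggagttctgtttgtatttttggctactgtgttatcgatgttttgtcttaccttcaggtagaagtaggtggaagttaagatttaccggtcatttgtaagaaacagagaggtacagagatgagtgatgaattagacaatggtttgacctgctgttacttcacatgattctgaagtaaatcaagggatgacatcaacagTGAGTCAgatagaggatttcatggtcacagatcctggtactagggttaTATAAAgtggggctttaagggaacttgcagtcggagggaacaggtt
Mmp13 start, chr9:7272264-7272563: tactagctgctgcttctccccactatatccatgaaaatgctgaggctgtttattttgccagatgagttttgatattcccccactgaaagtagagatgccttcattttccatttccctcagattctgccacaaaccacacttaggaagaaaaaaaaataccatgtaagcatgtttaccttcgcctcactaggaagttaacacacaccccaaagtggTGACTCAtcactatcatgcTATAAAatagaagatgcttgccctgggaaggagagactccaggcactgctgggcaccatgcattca

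Transcripts that begin at the downstream start of Mmp12 (5 of its 7) held 81.7%, 65.6% and 79.8% of the gene's expected counts in replicates 1 to 3, a mean of 75.7 ± 8.78% (SD, n = 3). The upstream start, shared by the other 2, held 18.3%, 34.4% and 20.2%. Replicate 2 had the highest upstream share, and the ranges of these count shares did not overlap between the 2 starts. Counts grow with transcript length, and most downstream counts fell in a retained intron and a nonsense-mediated decay model, described below. Per length, the upstream coding model ENSMUST00000120655.7 stood at 22.5, 24.8 and 10.6 TPM in replicates 1 to 3. It was above each single downstream model in replicates 2 and 3, but below the nonsense-mediated decay model (24.9 TPM) in replicate 1. In the second transcript table, made by another method, the downstream start held 80.5%, 66.8% and 74.4%. Reads that fit transcripts of both starts were divided by each table's model, so these shares are estimates. With the RefSeq start base as 0, the downstream window held an AP-1 match (TGAGTCA) beginning at -44 and a TATA box at 4. GENCODE also places starts of Mmp12 32 bases further on, at 7347406, and from there the same matches begin at -76 and -28. The Mmp13 window held the same pair of motifs, AP-1 (TGACTCA) at -35 and the TATA box at -16. The upstream Mmp12 window held only a PU.1 match, at -86. Mmp8 held a TATA box at -3 and a PU.1 match at -219, which are -30 and -246 from its GENCODE start at 7558456. The windows of Adam8, Mmp14, Timp1, Timp2 and Timp3 held none of the 3 motifs. Of all 32851 RefSeq windows of this length, 7.81% held the AP-1 motif, 13.6% the TATA box and 28.3% the PU.1 motif. A match describes letters only and is no measurement of binding.

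Mmp8 (ENSMUSG00000005800.3, chr9:7558456-7568485, plus strand), the collagenase best known from neutrophil granules, stood at 4.16, 3.92 and 3.31 TPM (3.80 ± 0.438 TPM, SD, n = 3), from 180 to 239 expected counts. These values lie close together. In TPM, Mmp8 exceeded Mmp13 in 3 of 3 libraries, with Mmp13 minus Mmp8 at log2 -0.36 ± 0.19 (SD, n = 3, exact two-sided sign-flip permutation p = 0.25, 0.286 adjusted over 8 pairs). In replicate 1 both genes had 232 expected counts, and the second table put Mmp13 slightly higher there (1.74 against 1.71 TPM). Mmp9 (ENSMUSG00000017737.2, chr2:164940780-164955850, plus strand), a gelatinase of neutrophils, osteoclasts and activated macrophages, had 4, 5 and 13 expected counts, or 0.06, 0.08 and 0.14 TPM. Exact 95% Poisson intervals of its CPM, which cover counting error only, were 0.0589 to 0.553, 0.0936 to 0.673 and 0.330 to 1.06. The intervals overlapped between libraries, and a difference between libraries was not tested. Of the neutrophil markers, 2 of 10 were measured (Ltf and Ngp), the summed level of the list was 2.03, 4.18 and 2.62 TPM, and Ly6g and Retnlg were at 0 counts in each library. Of the osteoclast markers, 4 of 7 were measured, with summed levels of 19.6, 41.8 and 19.1 TPM that came mostly from Atp6v0d2 (24.1 TPM), while Ocstamp and Calcr were at 0. Whether such cells contributed to the protease values was not tested, and in a bulk sample fewer cells of a type and less RNA per cell cannot be told apart.

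Mmp14 (ENSMUSG00000000957.11, chr14:54431612-54445364, plus strand), the membrane-type collagenase and activator of Mmp2, stood at 5.71, 4.27 and 6.02 TPM (5.33 ± 0.934 TPM, SD, n = 3). Mmp19 (ENSMUSG00000025355.7, chr10:128790910-128800824, plus strand), a secreted basement membrane protease, stood at 5.18, 5.44 and 3.95 TPM (4.86 ± 0.796 TPM, SD, n = 3). The order of this pair changed between libraries. Mmp14 minus Mmp19 was log2 0.13 ± 0.47 (SD, n = 3, exact two-sided sign-flip permutation p = 0.75, also 0.75 adjusted), and it turned to -0.24 in the second table, to -0.40 in CPM and to -0.10 without replicate 3. Mmp14 minus Adam8 was log2 -5.12 ± 1.03 (SD, n = 3), with Adam8 34.8-fold higher, in 3 of 3 libraries (exact two-sided sign-flip permutation p = 0.25, 0.286 adjusted). Without replicate 1 this difference was log2 -4.56.

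In the gene table, nearly all Timp RNA was Timp2. Timp2 (ENSMUSG00000017466.9, chr11:118301069-118355740, minus strand), which both inhibits metalloproteinases and takes part in activating Mmp2 on the cell surface, stood at 32.15 TPM in replicate 1, 67.71 TPM in replicate 2 and 42.10 TPM in replicate 3. Here replicate 1 was the lowest. The mean was 47.3 ± 18.3 TPM (SD, n = 3) and 54.9 TPM without replicate 1, and Timp2 held 96.9%, 99.5% and 99.1% of the summed Timp level. In the second table its part was smaller, with means of 21.3 TPM for Timp2, 2.08 TPM for Timp3 and 0.464 TPM for Timp1. The range of Timp2 in the gene table overlapped that of Mmp12: Mmp12 was above Timp2 in replicate 1 and below it in replicates 2 and 3. Timp2 exceeded Mmp14, its partner at the membrane, by log2 3.07 ± 0.78 (SD, n = 3), or 8.41-fold, in 3 of 3 libraries (exact two-sided sign-flip permutation p = 0.25, 0.286 adjusted), and by log2 3.86 in CPM.

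Timp1 (ENSMUSG00000001131.11, chrX:20870166-20874735, plus strand), a secreted inhibitor that binds the Mmp9 proform, had 13, 3 and 7 expected counts, or 0.78, 0.22 and 0.34 TPM. Timp2 exceeded it by log2 6.50 ± 1.27 (SD, n = 3), or 90.6-fold, in 3 of 3 libraries (exact two-sided sign-flip permutation p = 0.25, 0.286 adjusted). This log2 difference was 7.16 without replicate 1, 5.89 without replicate 2, 5.06 in the second table, 5.01 with a pseudocount of 1 and 8.88 in CPM. Timp1 minus Mmp9 was log2 1.39 ± 0.93 (SD, n = 3, same p and adjusted p by the exact test), but the difference was 0.03 when CPM replaced TPM and 0.85 without replicate 1. Timp3 (ENSMUSG00000020044.13, chr10:86300372-86349506, plus strand), the inhibitor that binds the extracellular matrix and also blocks Adam17, had 19, 10 and 6 counts, or 0.25, 0.11 and 0.05 TPM. Its level depended on the table. The second table gave Timp3 148, 275 and 97 estimated counts, 7.81, 27.5 and 16.1 times as many, mostly in 2 models classed as processed transcripts without a coding sequence, ENSMUST00000136045.1 and ENSMUST00000151134.1 (61.5, 156 and 44.5 estimated counts in the latter). Timp2 exceeded Timp3 by log2 7.67 ± 0.99 (SD, n = 3), or 203-fold, in the gene table and by log2 3.39 in the second table. In the gene table it was 8.24 without replicate 1, 5.35 at a pseudocount of 1 and 8.34 in CPM. Timp3 moved from place 9 to place 6 among the 10 genes in the second table.

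Several of these genes share their locus with another gene, and whether counting used strand is not given in the sources used here. Timp1 lies within Syn1 on the opposite strand, which had 188, 154 and 195 expected counts, and Timp3 lies within Syn3 on the opposite strand, with 19, 13 and 41 counts. In the gene table, both synapsin hosts thus had at least as many counts as the Timp inside them in each library. For Timp1 the host had more than 10 times as many. In the second table Timp3 was above Syn3 in each library, at 148, 275 and 97 against 67, 106 and 84 estimated counts. Syn1 stayed above Timp1 there, at 296, 293 and 291 against 38, 17 and 24. Timp2 contains Cep295nl on its own strand (276, 270 and 398 counts). Mmp19 is overlapped by Tmem198b (168, 242 and 259 counts) and by the antisense gene Gm47093, which had 0, 0 and 1 counts in the gene table and 121, 242 and 88 in the second table. Mmp12 overlaps Mmp1b, which had 0 counts, and Adam8 overlaps Gm16201 over 46 bases and contains Mir7062. Reads from overlapping genes on opposite strands cannot be told apart without strand, and the low Timp1 and Timp3 values are uncertain for that reason.

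Summed over genes, the 7 proteases stood at 534, 198 and 160 TPM and the 3 Timps at 33.2, 68.0 and 42.5 TPM in replicates 1 to 3. The ratio of the sums was 16.1, 2.90 and 3.77, a log2 ratio of 2.49 ± 1.33 (SD, n = 3). Replicate 1 was far above the others, and without it the mean log2 ratio was 1.73. Adam8, which is not a matrix metalloproteinase, made up 82.3%, 66.7% and 70.4% of the protease sum. The ratio for all 7 proteases is therefore mostly one of Adam8 to Timps, and is no measure of enzyme against inhibitor. Without Adam8, the 6 Mmps stood at 94.8, 65.9 and 47.4 TPM, and their ratio to the Timps was 2.86, 0.968 and 1.12 (log2 0.54 ± 0.85, SD, n = 3). Without Adam8, the sums of the 6 listed Mmps and the 3 Timps were thus nearly level in replicates 2 and 3. Replicate 1 alone kept an excess. Mmp27, at 23.03, 57.25 and 39.84 TPM in replicates 1 to 3, is not among these 6 Mmps. The near balance therefore holds for the listed genes only. These are sums of RNA levels in the nuclear fraction and give no measure of protein or activity.

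Libraries were compared on counts normalized with TMM factors, since TPM also depends on the other RNAs in its denominator. Adam8 reached 1490 CPM in replicate 1, 419 CPM in replicate 2 and 499 CPM in replicate 3. Replicate 1 was 3.26-fold above the other libraries (log2 1.70), and Adam8 was the 1 gene of the 8 measured that was at least 2-fold apart from both other libraries, where 4.85% of all measured genes were called in that direction. The other 5 comparisons (replicate 1 below, replicates 2 and 3 above or below) called 0 of the 8. Each of them called 0.856% to 3.22% of all measured genes. With 3 libraries of 1 group these are descriptions, with no test. The range of Adam8, 3.56-fold from lowest to highest, was larger than that of 94.2% of measured genes and of 96.7% of the 240 genes within 2-fold of its level. Replicates 2 and 3 differed little, and their order for Adam8 depended on the scale: 131.72 against 112.95 TPM, but 371 against 529 TPM when TPM was rescaled over protein-coding genes alone.

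Mmp12 moved the same way as Adam8 but less, at 193, 105 and 112 CPM, with replicate 1 1.79-fold above the others. Timp2 went the other way, at 144, 279 and 248 CPM, with replicate 1 at 0.547 of the others. Mmp14 was highest in replicate 3, at 14.3, 10.9 and 20.6 CPM (1.64-fold above the others). Mmp13 stood at 11.8, 8.05 and 9.91 CPM, and Mmp8 at 11.8, 10.2 and 12.4 CPM. Mmp19 was the steadiest of the 8 genes, at 19.7, 18.7 and 20.3 CPM, a 1.08-fold range that only 2.95% of measured genes fell below. The median gene had a 1.52-fold range. Timp3 had a 2.56-fold range (0.963, 0.567 and 0.311 CPM), but from 6 to 19 counts, with 95% Poisson intervals of 0.618 to 1.60, 0.276 to 1.06 and 0.105 to 0.623 CPM that overlapped between neighbours.

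**Figure D2:**
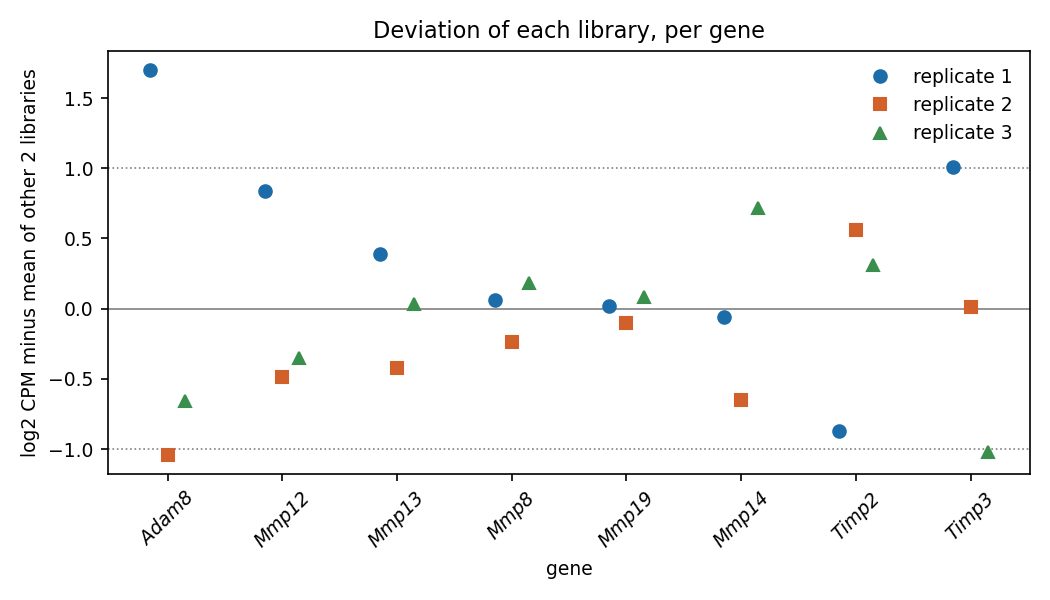
Log2 CPM of each library minus the mean of the other 2, for the 8 measured genes, with 1 point per library and dotted lines at 2-fold. Adam8 in replicate 1 (1.70) lay farthest out, Timp2 in replicate 1 (-0.87) lay on the other side, and the 3 points of Mmp19 lay within 0.10 of 0.

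Adam8 was both the gene with the highest mean TPM and the measured gene of the 10 with the largest range, so the genes most like it were sought. Likeness was the distance between the 3 centred log2 CPM values, over the 9006 protein-coding genes whose mean count reached 100. The nearest were Dok2, an adaptor protein that dampens receptor tyrosine kinase signalling, at a distance of 0.027 (76.4, 22.0 and 25.9 CPM), the NF-κB inhibitor Tnip3 at 0.031 (489, 141 and 163 CPM) and the complement C5a receptor C5ar1 at 0.051 (551, 155 and 193 CPM). A further limit of 0.25, chosen after the values were seen, held 53 genes. With 3 libraries, this is a likeness of 3 values only.

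The fraction is nuclear, so the division of counts among annotated transcript types was described for the genes with more than 1 type. A retained intron model is a transcript that keeps an intron its coding form removes, and a nonsense-mediated decay model has an early stop codon. Retained intron models held 23.8%, 37.1% and 29.2% of Adam8 counts (30.0 ± 6.69%, SD, n = 3) and 34.6%, 33.6% and 35.9% of Mmp12 counts (34.7 ± 1.15%). For Mmp14 the share was 21.5%, 8.09% and 17.2%, and for Mmp19 it was 0 in each library. Over the 7232 measured genes with such a model the median share was 19.3%, and 64.4% of them lay below Adam8 and 70.1% below Mmp12. The Mmp12 share was 43.7% in the second table and 16.0% by TPM, which divides by length: the retained intron model, at 4474 bases, is the longest of the gene.

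The share of Mmp12 in its nonsense-mediated decay model was 30.4%, 19.6% and 27.0% (25.6 ± 5.53%, SD, n = 3), where the median of 3556 genes was 2.29% and 86.5% of them lay below Mmp12. Protein-coding models held 35.0%, 46.4% and 37.1% of Mmp12 counts, and a mean of 55.3% by TPM. The excess of Adam8 in replicate 1 was present in both of its main types: protein-coding models stood at 1130, 263 and 353 CPM, 3.67-fold above the mean of the others, and retained intron models at 353, 155 and 146 CPM, 2.35-fold above. For Mmp12, replicate 1 was 1.5-fold above the mean of the others in protein-coding models, 1.77-fold in the retained intron model and 2.32-fold in the nonsense-mediated decay model. Comparing levels by type was a choice made after the values were seen.

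**Figure D3:**
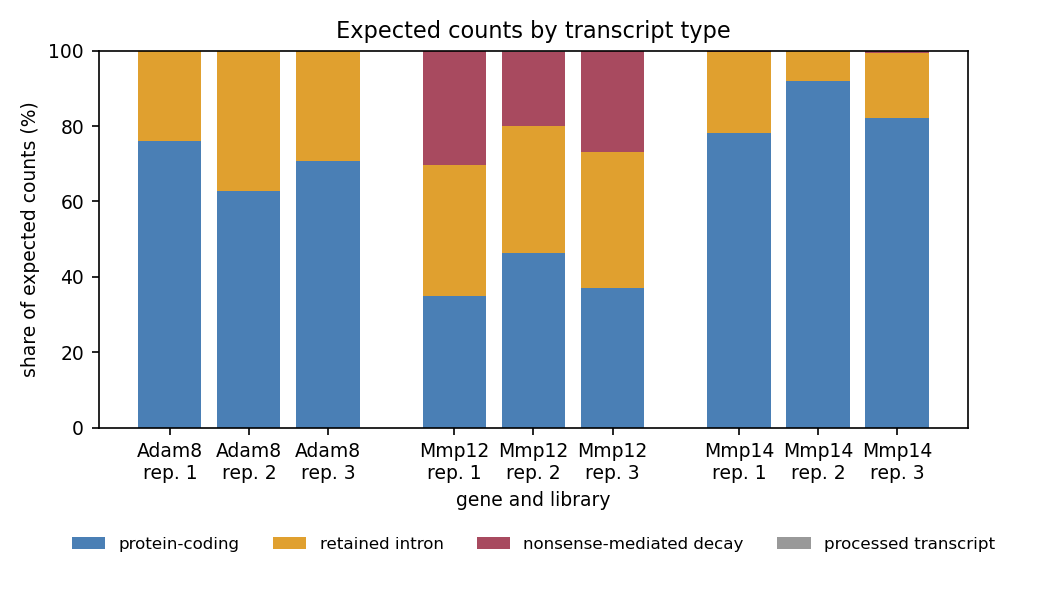
Share of expected counts (%) by annotated transcript type for Adam8, Mmp12 and Mmp14, 1 stacked bar per library. Protein-coding models held 62.9% to 76.2% of Adam8 and 35.0% to 46.4% of Mmp12, and the nonsense-mediated decay model held 19.6% to 30.4% of Mmp12.

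Mmp8, Mmp12 and Mmp13 lie in the Mmp gene cluster of chromosome 9, which held 10 Mmp genes over 427 kb (chr9:7272514-7699585). Only 4 of the 10 were measured: Mmp8, Mmp12, Mmp13 and Mmp27, which lies next to Mmp8. Mmp27 (chr9:7571396-7581885, plus strand) stood at 23.03, 57.25 and 39.84 TPM (40.0 ± 17.1 TPM, SD, n = 3), from 936, 1913 and 2109 counts. Its replicate 1 was low, at 0.436 of the others, in the direction opposite to Mmp12. Mmp27 was below Mmp12 in replicate 1 and above it in replicates 2 and 3. Mmp8, its neighbour, was at 1.04 of the others in the same library. Mmp10 had 14, 1 and 4 counts and Mmp3 had 0, 1 and 0, and Mmp1a, Mmp1b, Mmp7 and Mmp20 had 0 counts in each library.

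**Figure D4:**
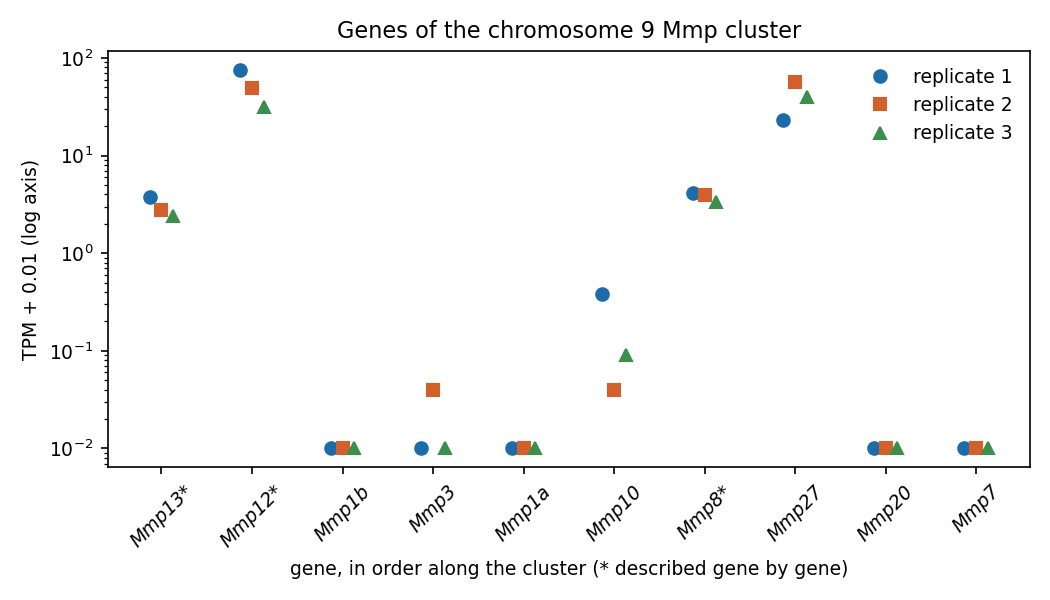
TPM + 0.01 on a log axis for the 10 Mmp genes of the chromosome 9 cluster in genomic order, 1 point per library, with stars on Mmp13, Mmp12 and Mmp8. Mmp12 and Mmp27 stood above 20 TPM in each library, Mmp13 and Mmp8 between 2 and 5 TPM, and the others below 1 TPM.

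Among the 17 other Mmps, 6 were measured, with a median of 0.137 TPM over the list. The highest was Mmp27, described above, and the lowest measured was the leukocyte protease Mmp25, at 0.150 TPM. Mmp2, the gelatinase that Mmp14 and Timp2 activate, had 7, 9 and 22 counts. In contrast, 9 of 13 genes of the Adam sheddase list were measured, with a median of 6.26 TPM. Adam15 stood at 61.6 ± 29.5 TPM, the sheddase Adam9 at 36.8 ± 3.49 TPM, Adam33 at 34.4 ± 10.3 TPM and Adam17, which releases Tnf from the membrane, at 32.0 ± 4.02 TPM (SD, n = 3). The lowest measured was Rhbdf1, a relative of the Adam17 escort Rhbdf2, at 0.733 TPM. Adam8 was thus above each of these 4 Adams in every library. Of 14 Adamts proteases, 4 were measured, from Adamts10 at 16.8 ± 2.27 TPM (SD, n = 3) down to Adamts6 at 0.710 TPM.

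Other protease inhibitors had 3 of 10 measured: the cysteine protease inhibitors Cst3 (71.8 ± 8.88 TPM, SD, n = 3) and Cstb (30.7 ± 3.55 TPM), and the membrane inhibitor Reck (0.177 TPM). The fourth Timp, Timp4, had 0 counts in each library. In the list of activators, 4 of 8 were measured. These included the proprotein convertases Furin (28.0 ± 6.66 TPM, SD, n = 3), which activates Mmp14, and Pcsk7 (14.2 ± 1.78 TPM), and the lowest was the plasma kallikrein gene Klkb1 (0.147 TPM). No gene of these 2 lists was 2-fold apart in any library. Each comparison called only 0.856% to 4.85% of all measured genes, so this is no result about lists this short.

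The plasminogen system, whose product plasmin can remove Mmp propeptides, had 6 of 11 genes measured. Plau, the urokinase activator, stood at 144.66, 23.44 and 29.08 TPM, from 7755, 1025 and 2006 counts, and its replicate 1 was 5.05-fold above the others. The plasminogen receptor gene Plgrkt went the other way, at 50.68, 169.01 and 129.26 TPM, with replicate 1 at 0.317 of the others. The annexin Anxa2 was at 35.3 ± 8.19 TPM and the urokinase receptor Plaur at 26.0 ± 3.93 TPM (SD, n = 3), neither apart in any library. Plau was thus called above and Plgrkt below in replicate 1, where 4.85% and 3.22% of all measured genes were.

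Genes that bind or clear the proteases had the highest median of the 8 pathway lists, with 10 of 12 measured and a median of 35.5 TPM. The endocytic receptor Lrp1, which takes up Mmp and Timp complexes, stood at 448 ± 147 TPM, the mannose receptor Mrc1 at 273 ± 127 TPM, the Timp1 partner Cd63 at 192 ± 53.5 TPM and the integrin chain Itgb1 at 118 ± 18.0 TPM (SD, n = 3). Kdr was the lowest measured, at 4.23 TPM. Of 16 matrix substrates, 7 were measured. Spp1 (osteopontin) stood at 631 ± 103 TPM, the matrix glycoprotein Thbs1 at 173 TPM (from 126.50 to 225.76 TPM) and the laminin chain Lamc1 at 11.8 ± 2.06 TPM (SD, n = 3), while the fibrillar collagen gene Col1a1 was at 0.103 TPM. Fibroblast markers had 2 of 8 measured and summed to 0.590 to 0.920 TPM. The lists of other Mmps, Adams, Adamts, inhibitors, activators and matrix genes hold genes chosen for their family or role, and their medians describe these libraries only.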

How the data were processed

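Each library came with a gene table and 2 transcript tables. Per the file headers, the gene table and the first transcript table hold the authors' expected counts and TPM under RSEM column names, and the second transcript table holds estimated counts and TPM with kallisto column names. The deposited notes name mm10 and GENCODE M21. For program versions, filters and the strand setting, no statement is given in the sources used here. Rows naming no gene (1.24%, 0.372% and 0.0641% of counts in replicates 1 to 3) were left out.

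Levels of different genes were compared as deposited TPM. Differences between genes were taken within a library on log2(TPM + 0.1), with an exact two-sided sign-flip permutation test over 3 libraries. Libraries were compared on expected counts rounded to whole numbers, for genes whose mean count was 10 or more, as log2 CPM from edgeR 4.0.16 with TMM factors of 1.07, 1.02 and 0.921 and a prior count of 2. The calling rule was tried on simulated counts with planted changes, with a spread that was set and not taken from these libraries. It was thus no test of any observed call. A gene was called in a library at least 2-fold above, or below, both others. Depth was 17345644 to 20947006 counts in annotated genes. Arithmetic used Python 3.11.15 and scipy 1.17.1.

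The members and gene lists were chosen with earlier results of these data known. Named genes are all 10 members, genes overlapping them, the chromosome 9 Mmp genes, and of each list up to 4 genes with at least 10 TPM and the lowest measured, except 1 gene that is not reported here. The genes of likeness to Adam8 followed a distance rule. Mmp2, Timp4 and the markers named were chosen after their values were seen, as were the start sites, motifs, Poisson intervals and levels by transcript type. Alternatives were the second table, CPM in place of TPM, TPM over protein-coding genes, other pseudocounts, prior counts, filters, folds and size factors (DESeq2 1.42.0 or total counts), and leaving out each library.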

Additional observations from a re-analysis of the deposited data

How the results depend on the processing

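With Adam8 left out, the log2 ratio of summed protease to summed Timp TPM moved from 2.49 to 0.54. The difference Mmp14 minus Mmp19 changed sign to -0.24 in the second transcript table and to -0.40 when CPM replaced TPM, and ranged from -0.10 to 0.37 when 1 library was left out. The 45 other values of the 8 pair differences kept their direction, out of 48 computed. The number of the 10 genes at least 2-fold apart in a library was 1, became 2 with no filter on low counts (Mmp9 in replicate 3 added) and 4 at 1.5-fold (Mmp12, Timp2 and Timp3 added), and stayed at 1 with DESeq2 size factors, total counts, a mean count of at least 100 or the second table. The cause was not tested, except that the lower fold and the absent filter admit more genes by construction. No share of all genes is given beside the counts at these other settings. The median gene had a 1.52-fold range, so the 4 genes at 1.5-fold cannot be read as a result about the list. Of 50 recomputed TPM levels, 18 moved by more than the SD over libraries, all of them in the second table or with protein-coding genes alone as the denominator. Of 20 recomputed retained intron shares, 4 moved by more than that SD. The number of genes measured was 7 to 9 when 1 library was left out. Timp1, Timp3 and Mmp9 rested on 3 to 19 expected counts a library. For Timp3 the second table gave 148, 275 and 97 estimated counts in replicates 1 to 3, so its level depended on the table. No paired analysis was possible because the 3 libraries form a single group, so that replicate numbers pair no samples across groups.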
